A study of Mus musculus with 24 samples.

Results

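Heat shock proteins are chaperones that hold or refold damaged proteins, and this account follows 10 of them, chosen by name, in mouse fibroblasts given an oxidizing agent, bisphenol A (BPA) or both. The genes are Hspa1a, Hspa1b, Hspa8, Hsph1, Dnajb1, Bag3, Hspb1, Hspb8, Hsp90aa1 and Hspd1. A probe was taken for a gene when the array annotation of the first array set gave that gene's symbol or an older synonym, and the same probe was read in the second set. This found 17 probes for 9 of the 10 genes, among 19505 genes to which 32719 of the array's 41174 probes could be matched. No probe was annotated to Hspa1b. Hsph1 was listed under its older name Hsp110.

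The cells were immortalized mouse embryonic fibroblasts without Ku70 (Ku70-/-), a DNA end-binding protein of nonhomologous end joining, and all groups, controls included, share that deficiency. In a first set of 15 arrays, 3 arrays each were made from untreated cells labeled 4 hr, from cells harvested 4 or 24 hr after the start of a 1 hr pulse of 20 mM potassium bromate (KBrO3), and from cells co-exposed to KBrO3 and 150 μM BPA and harvested at the same times. In co-exposure, BPA was present for 1 hr before KBrO3, during it and afterwards. A second set of 9 arrays has 3 arrays each of separate untreated cells, whose label gives no time, and of cells given 150 μM BPA alone and labeled 4 or 24 hr, although the Methods give 1 hr more in BPA for each.

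Levels are log2 of the processed spot signal minus the array's 75th percentile. A gene was called higher or lower when its brightest probe had a Benjamini-Hochberg adjusted p under 0.05 in limma, over all probes tested in the set, and a fold change over 1.5. Errors after ± are SD over n = 3 arrays unless SE is named. The labels number the arrays of a group as biological replicates but name no separate cultures, so the p-values measure the spread between these arrays. Replicates differed less in the first set, with a median residual SD of 0.106 over 27180 probes, than in the second, with 0.318, and the share of spots well above background was 57.7% to 68.1% and 76.4% to 79.4%. Each set lies on 5 slides. The only treated arrays of the first set on a slide with a control were those of KBrO3 alone at 4 hr, and for every other treatment of that set a slide effect cannot be told apart from the difference from control.

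Of the fibroblast markers, 9 of 10 were well above background on all 15 arrays of the first set, including Col1a1, Col1a2, Vim and Pdgfrb. Their summed log2 level was 10.41 to 10.51 in the controls, 10.27 to 10.34 after KBrO3 and 10.05 to 10.09 after co-exposure at 4 hr, and 8.96 to 9.09 and 8.58 to 8.76 at 24 hr. Of 3 blood markers, Cd68 was above background on all 15 arrays and Ptprc on none of them. The summed level of these 3 was −3.06 to −2.84 in the controls, −0.819 to −0.762 and −1.34 to −1.31 after KBrO3 and co-exposure at 4 hr, and −1.84 to −1.82 and −1.36 to −1.06 at 24 hr. The summed level of 3 endothelial markers was −4.97 to −4.46 in the controls, −3.52 to −3.40 and −3.46 to −3.45 after KBrO3 and co-exposure at 4 hr, and −3.52 to −3.36 and −4.28 to −4.23 at 24 hr, with Pecam1 above background on none of the 15 arrays. That of 4 skeletal muscle markers was −4.32 to −3.96 in the controls, −3.69 to −3.50 and −3.45 to −3.39 at 4 hr, and −4.96 to −3.83 and −5.13 to −4.36 at 24 hr. None of 4 epithelial, 3 endothelial and 4 skeletal muscle markers was above background on all 15, but endothelial Kdr was on 14 and epithelial Krt18 on 11. In the second set, Krt8, Krt18, Kdr, Myod1, Myog, Cd68 and all 10 fibroblast markers were above background on all 9 arrays. The part of the shifts in marker levels in the results was not tested. In bulk RNA, fewer cells of a type and less RNA per cell cannot be told apart.

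In the cell, Hspa1a, Hspa1b and the constitutive Hspa8 belong to the HSP70 family, which binds exposed hydrophobic stretches of proteins in a cycle driven by ATP. J-domain proteins such as Dnajb1 bring substrates and stimulate that cycle, and the HSP110 protein Hsph1 and the BAG-domain protein Bag3 release the nucleotide. The small heat shock proteins Hspb1 and Hspb8 bind unfolding proteins without ATP, and Bag3 works with Hspb8 in selective autophagy of aggregates. Hsp90aa1 is the inducible cytosolic HSP90. Hspd1 is the mitochondrial chaperonin HSP60, so the name cytosolic does not hold for it. Many of these genes are activated by heat shock factor 1, which binds repeats of the unit nGAAn in their promoters.

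Promoter sequences were available from RefSeq (GRCm38.p6) for 8 of the 10 genes, as 11 windows of 250 bases before and 50 after a start site. A heat shock element of 2 inverted units, spelled GAANNTTC or TTCNNGAA and searched on both strands, was found in 8 of these 11 windows, against 15.1% of 32817 windows of the same length. Those 8 windows belong to 7 genes. The element of 3 units, which is GAANNTTC followed by NNGAA or TTCNNGAA followed by NNTTC, contains 2 overlapping 2-unit elements and was found in 3 of the 11 windows, against 0.603% of all windows. These belong to Hspd1 and to Hsph1, whose 2 windows overlap and hold the same match after the start site. The elements of Bag3 and Hspb8 also lay after it, and Dnajb1 had none in either of its 2 windows. A match of letters is a description and not a binding site.

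The stretches are printed as examples of the element before the start site. All 9 measured genes rose at 4 hr, Dnajb1, Bag3 and Hspb8 without an element there included. A link between the element and the rise was not tested. Each runs 5′ to 3′ in the direction of the gene, and capitals mark the element. For Hspa1a, the 250 bases before the start (chr17:34972157-34972406, minus strand) hold 1 element at −104 to −97, and the Hspa1b promoter is identical to it at 247 of 250 bases. The stretches of Hspb1 (chr5:135887787-135887844, plus strand), Hsph1 (chr5:149636347-149636384, minus strand) and Hspd1 (chr1:55088044-55088091, minus strand) are shown around their elements. In Hspd1, the 3-unit elements overlap at −144 to −127.
Hspa1a: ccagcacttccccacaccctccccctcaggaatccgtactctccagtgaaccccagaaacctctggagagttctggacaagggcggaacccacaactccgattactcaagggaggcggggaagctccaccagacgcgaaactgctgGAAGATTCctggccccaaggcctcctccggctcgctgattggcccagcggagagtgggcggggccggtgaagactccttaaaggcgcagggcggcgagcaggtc
Hspb1: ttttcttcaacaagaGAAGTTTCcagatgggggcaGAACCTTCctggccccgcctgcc
Hsph1: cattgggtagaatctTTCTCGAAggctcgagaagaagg
Hspd1: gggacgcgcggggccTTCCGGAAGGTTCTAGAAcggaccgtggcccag

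The array measured each gene through probes of 60 bases, and the sequences of those probes bear on what some values mean. Hspa1a has 4 probes. A pair of them lies in the coding sequence, which Hspa1a is known to share almost entirely with Hspa1b. In the array design's coordinates (mm7) this pair is at chr17:33068671-33068730 and chr17:33067263-33067322, in this order below. The brightest Hspa1a probe lies nearer the 3′ end, at chr17:33066911-33066970. Whether any of the 4 probes, the brightest one included, also bound Hspa1b RNA was not tested, so all values given for Hspa1a may hold signal of both genes. The Hspb1 probe (chr5:134860337-134860524 in mm7) covers more of the genome than its 60 bases, so it crosses an intron. The second probe of Hspb1 was placed on chromosome 13, away from the gene, and was too dim to be tested in either set. Both Hspa8 probes were placed on chromosome 5, whereas RefSeq has the gene on chromosome 9.
Hspa1a, first coding probe: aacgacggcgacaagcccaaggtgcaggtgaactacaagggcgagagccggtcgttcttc
Hspa1a, second coding probe: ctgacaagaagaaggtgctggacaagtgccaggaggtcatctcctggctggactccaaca
Hspb1: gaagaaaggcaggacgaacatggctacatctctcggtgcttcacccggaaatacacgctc

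KBrO3 alone raised all 9 measured genes at 4 hr. Higher levels were called for 20.9% of 14564 genes tested in that comparison and lower levels for 23.1%. The median log2 difference was 1.88 over the 9 genes and 0.018 over all genes tested. On all 9 genes the 3 KBrO3 arrays were above the 3 controls, as they were for 38.8% of all genes. Within the 1 slide that holds both groups, the 9 log2 differences had the same sign and departed by at most 0.083 from those over all arrays.

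**Figure D1:**
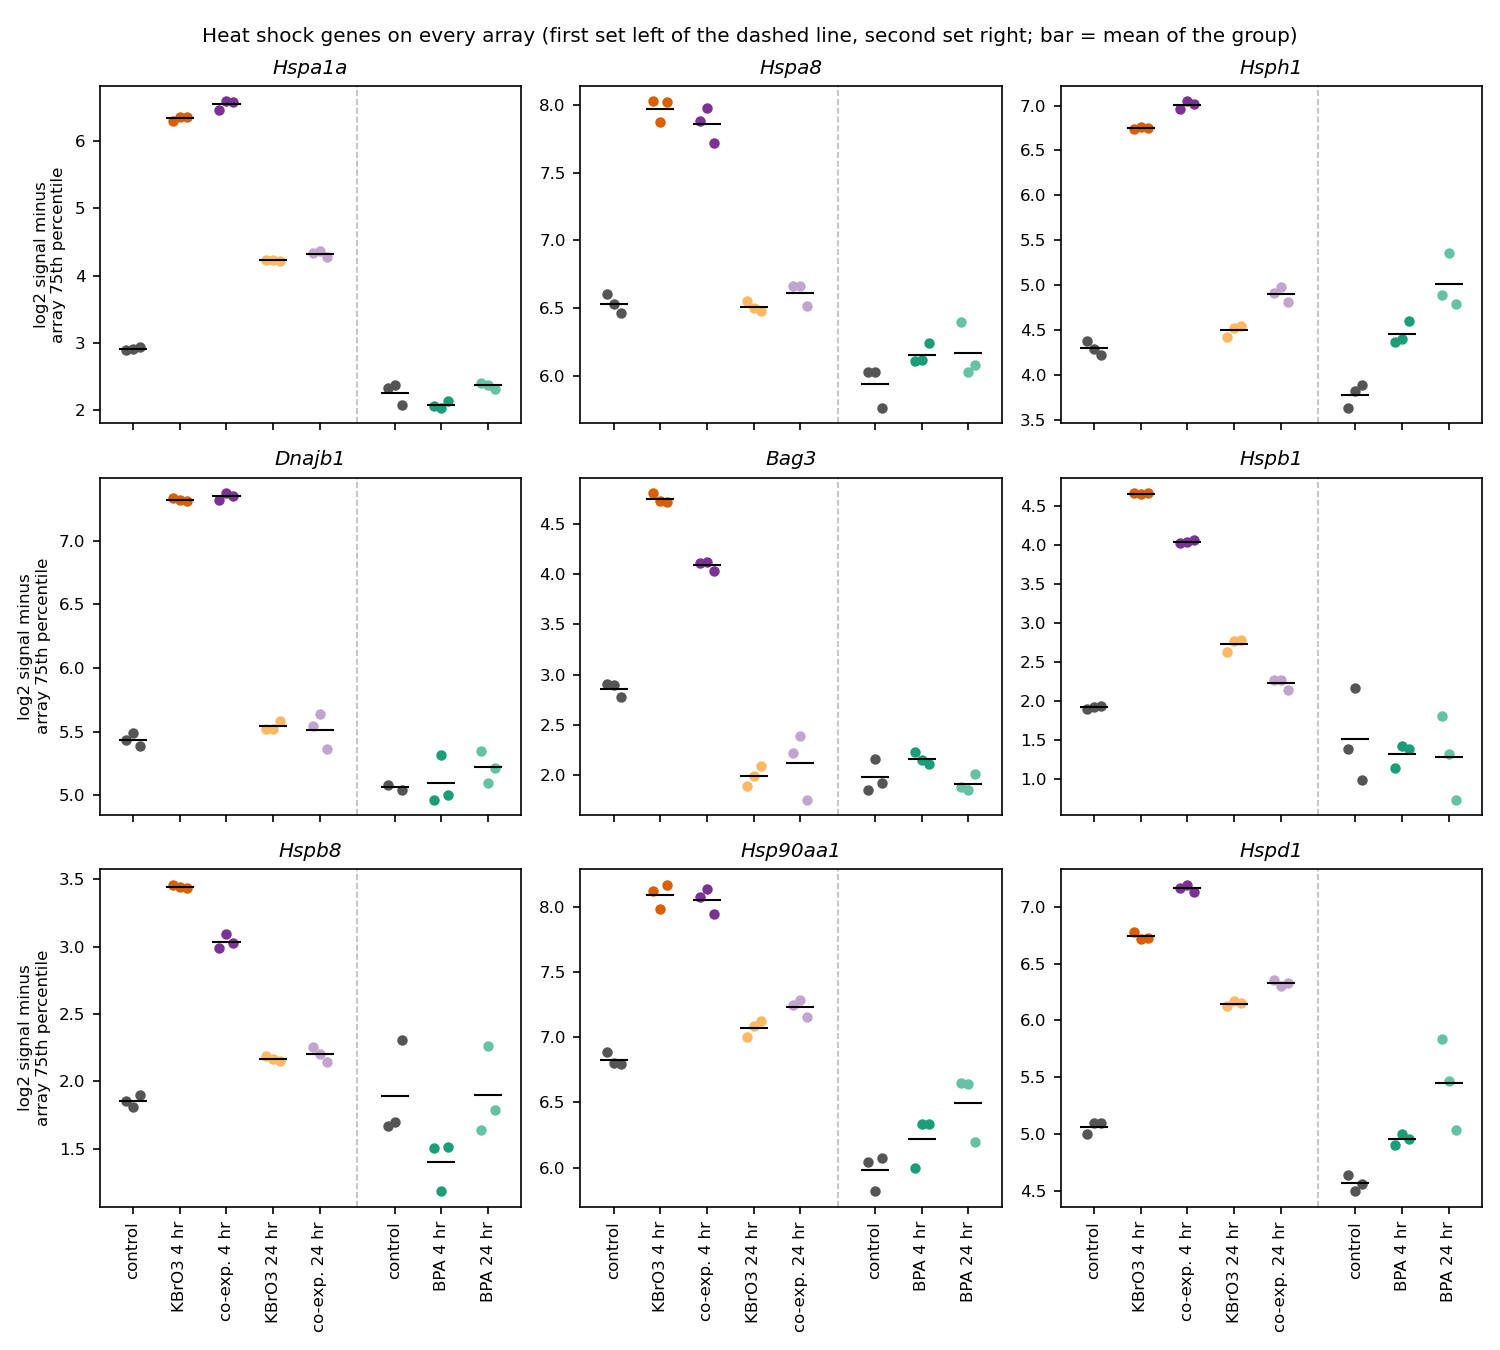
Level of each gene (y axis, log2 processed signal minus the array's 75th percentile, brightest probe) on each of the 24 arrays by group (x axis), with points for arrays and bars for group means. All 9 genes stand highest in the 2 groups sampled 4 hr after KBrO3 began. Bag3 at 24 hr stands below the controls, which are labeled 4 hr, and Hsph1 is higher after BPA alone at 24 hr.

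Among the HSP70 proteins and their partners, Hspa1a had the largest rise. Its levels were 2.90, 2.91 and 2.94 in the controls and 6.30, 6.36 and 6.35 after KBrO3, which is a difference of 3.42 ± 0.042 (SE), or 10.7-fold (limma adjusted p = 2.97e-14). Its other 3 probes rose by 3.46, 3.52 and 3.55 on the log2 scale. The 3 KBrO3 arrays differed by far less from each other than from the controls.

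Hspa8, the constitutive HSP70, had levels of 6.60, 6.53 and 6.46 in the controls and 8.03, 7.87 and 8.02 after KBrO3. It rose 2.72-fold (adjusted p = 2.06e-09), and its second probe gave a log2 difference of 2.00. The groups did not overlap.

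Hsph1 had levels of 4.38, 4.29 and 4.22 in the controls and 6.74, 6.76 and 6.75 after KBrO3, a 5.48-fold rise (adjusted p = 1.87e-12). Dnajb1, which stimulates the ATPase of HSP70, rose 3.69-fold, from 5.43, 5.49 and 5.39 to 7.33, 7.32 and 7.31. Its second probe gave a larger log2 difference, 2.65 against 1.88.

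Bag3 had levels of 2.90, 2.90 and 2.78 in the controls and 4.81, 4.72 and 4.72 after KBrO3, a 3.70-fold rise (adjusted p = 2.96e-08). Its second probe gave a log2 difference of 1.98. Both probes therefore showed the rise at 4 hr.

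The small heat shock protein Hspb1 rose 6.67-fold, from 1.90, 1.93 and 1.94 in the controls to 4.67, 4.65 and 4.66. Hspb8, the partner of Bag3, rose 3.02-fold, from 1.85, 1.81 and 1.89 to 3.46, 3.44 and 3.44. In both genes every KBrO3 array was above every control by more than 1 on the log2 scale.

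Hsp90aa1 had the smallest rise of the 9, 2.40-fold, with levels of 6.89, 6.80 and 6.80 in the controls and 8.12, 7.98 and 8.17 after KBrO3. The mitochondrial Hspd1 rose 3.19-fold, from 5.01, 5.10 and 5.10 to 6.78, 6.72 and 6.73, and its second probe gave a log2 difference of 2.10.

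Co-exposure to KBrO3 and BPA also raised all 9 genes at 4 hr, against the same control arrays. Here 28.2% of genes tested were called higher and 26.6% lower, and the median log2 difference was 1.91 over the 9 genes and 0.007 over all. Hspa1a was again highest in fold, with levels of 6.46, 6.59 and 6.58 and a 12.4-fold rise. Hsph1 rose 6.56-fold, Hspb1 4.35-fold, Hspd1 4.27-fold, Dnajb1 3.76-fold and Hspa8 2.51-fold. Hsp90aa1 and Bag3 each rose 2.34-fold and Hspb8 2.27-fold. The second probes gave larger rises for Bag3, 3.62-fold, for Dnajb1, 6.66-fold, and for Hspa8, 3.73-fold. On all 9 genes the 3 co-exposed arrays were above the 3 controls, as they were for 42.5% of all genes.

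**Figure D2:**
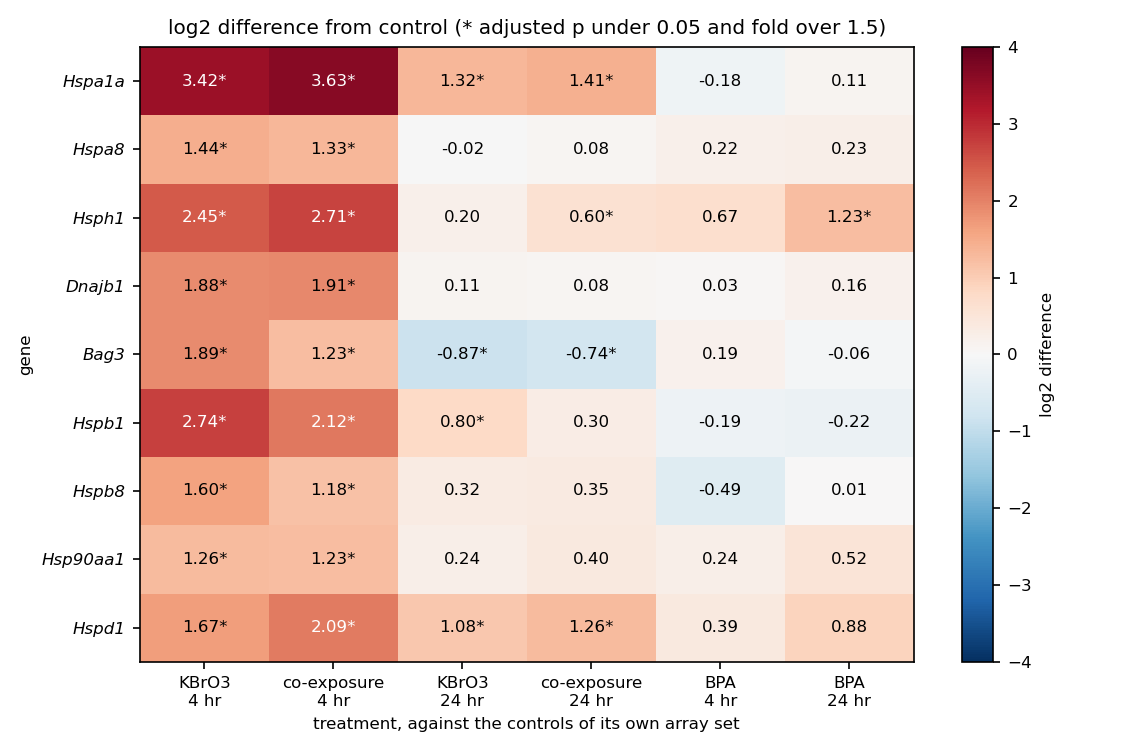
Log2 difference of each treatment from the controls of its own array set (columns) for the 9 genes (rows), colored from blue (lower) to red (higher), with asterisks at called values. The 2 columns at 4 hr after KBrO3 run from 1.18 to 3.63, whereas the columns at 24 hr run from −0.87 to 1.41.

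By 24 hr after KBrO3 alone, 3 of the 9 genes were called higher than control, Hspa1a, Hspb1 and Hspd1, and Bag3 was called lower. The controls of this set are labeled 4 hr, so time in culture and treatment cannot be told apart in its 24 hr differences from control. The shares over all genes tested were 12.7% higher and 21% lower. Hspa1a stood at 4.24, 4.23 and 4.22, 2.49-fold above control (adjusted p = 1.05e-10), and all 4 of its probes were called. Hspd1 stood at 6.12, 6.17 and 6.15, 2.12-fold above control, and Hspb1 at 2.63, 2.77 and 2.79, 1.75-fold above. In these 3 genes no KBrO3 array overlapped the controls.

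The other 5 genes lay within 1.5-fold of control at 24 hr. The log2 difference was 0.32 for Hspb8, 0.24 for Hsp90aa1, 0.20 for Hsph1, 0.11 for Dnajb1 and −0.023 for Hspa8. The 3 KBrO3 arrays were above the 3 controls in Hspb8, Hsp90aa1, Hsph1 and Dnajb1, as for 32.8% of all genes, and the adjusted p was 2.51e-05 for Hspb8, 0.0060 for Hsp90aa1, 0.00585 for Hsph1 and 0.129 for Dnajb1. For Dnajb1 its second probe stood 0.80 above control (adjusted p = 1.45e-08) and was called, so the probes of that gene did not give the same call.

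Bag3 stood at 1.89, 1.99 and 2.09 after KBrO3 at 24 hr, below all 3 controls, a difference of −0.87 ± 0.12 (SE) (adjusted p = 5.71e-05). Its dimmer second probe, which crosses an intron in the array's coordinates, gave −0.13 (adjusted p = 0.266) and was not called. The median over both probes was −0.50 with a median adjusted p of 0.133. The lower level than in the controls labeled 4 hr therefore rests on 1 probe. With normexp background correction Bag3 was at −0.54 and not called, whereas Hsp90aa1 was called at 0.64, so that 4 of the 9 genes were higher and 0 lower, beside 12.3% and 36.9% of all genes. Normexp moved the median of all probes here from −0.024 to −0.52.

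**Figure D3:**
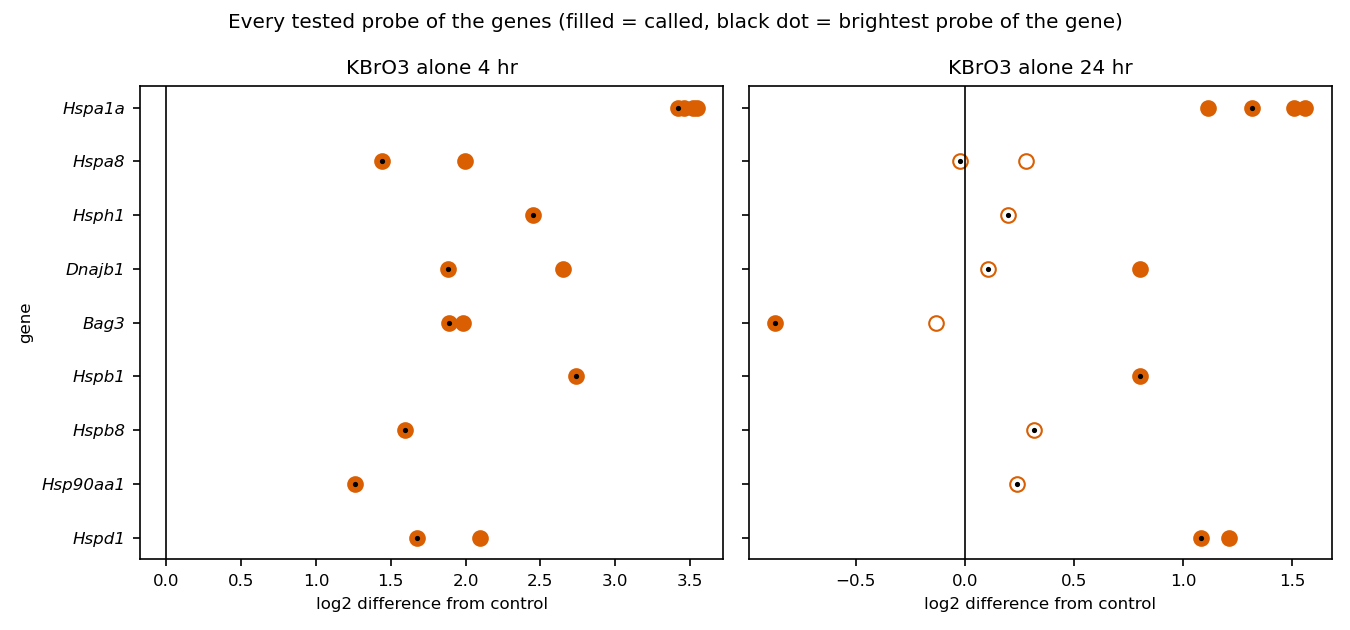
Log2 difference from control (x axis) of every tested probe of the 9 genes (rows) after KBrO3 alone at 4 hr (left) and 24 hr (right). All probes are called higher at 4 hr, and at 24 hr the probes of Bag3 and of Dnajb1 do not give the same call.

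After co-exposure at 24 hr, Hspa1a, Hspd1 and Hsph1 were called higher than the controls labeled 4 hr and Bag3 lower. Over all genes tested, 15.7% were higher and 24% lower. Hspa1a stood at 4.34, 4.37 and 4.27, 2.67-fold above control, and Hspd1 at 6.36, 6.30 and 6.33, 2.40-fold above. Hsph1 stood at 4.91, 4.97 and 4.81, 1.52-fold above control (adjusted p = 6.93e-07), and without control array 3 or co-exposed array 2 its log2 difference was 0.57, just under the fold threshold. The log2 difference of the other 5 genes was 0.40 for Hsp90aa1, 0.35 for Hspb8, 0.30 for Hspb1, 0.082 for Hspa8 and 0.077 for Dnajb1. The second Dnajb1 probe stood 0.88 above control, 1.84-fold (adjusted p = 4.61e-09), and was called. Bag3 stood at 2.22, 2.39 and 1.76, below all 3 controls, a difference of −0.74, and −0.55 without co-exposed array 3, while its second probe gave −0.27. With arrays scaled to their medians, 6 of the 9 genes were higher and 0 lower, since Hsp90aa1, Hspb1 and Hspb8 were then called and Bag3 was not, and with normexp 4 were higher and 0 lower. Median scaling called 30% of all genes higher and 15.8% lower here and moved the median of all probes from −0.067 to 0.25, and normexp called 15.8% higher and 36.3% lower.

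Between 4 and 24 hr all 9 genes fell after KBrO3 alone, and all 9 fell after co-exposure. Over all genes tested, 19.6% rose and 28.5% fell between these times after KBrO3 alone, and 23.4% rose and 34.3% fell after co-exposure. The log2 differences ran from −2.76 for Bag3 to −0.59 for Hspd1 after KBrO3 alone and from −2.22 for Hspa1a to −0.82 for Hsp90aa1 after co-exposure. In all 9 genes the 24 hr arrays were below the 4 hr arrays under both treatments, as they were for 44.5% of all genes after KBrO3 alone and 47.9% after co-exposure. No untreated cells labeled 24 hr were part of the first set. No slide held arrays of both times of a treatment, so after KBrO3 alone an effect of slide cannot be told apart from the fall. After co-exposure, slide as a fixed block could be fitted, and all 9 genes were called lower. Under quantile normalization 7 genes fell after KBrO3 alone and 8 after co-exposure, beside 23% and 27.4% of all genes, with Hspd1 at 0.028 (adjusted p = 0.628) and Hsp90aa1 at −0.46 after KBrO3 alone. With arrays scaled to their medians 8 fell after KBrO3 alone and 6 after co-exposure, beside 23.8% and 22% of all genes, and after co-exposure Hsp90aa1 was at −0.36 and Hspd1 and Hspb8 were each at −0.37.

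In the order of group means in the first set, both 4 hr groups stood above the remaining groups in all 9 genes. KBrO3 alone was highest in Hspa8, Hsp90aa1, Bag3, Hspb1 and Hspb8, and co-exposure in Hspa1a, Hsph1, Dnajb1 and Hspd1. The first 2 places had an adjusted p above 0.05 in Hsp90aa1 (adjusted p = 0.643), Hspa8 (0.196) and Dnajb1 (0.709). At 24 hr the arrays of the 2 treatments overlapped in Hspa8, Dnajb1, Hspb8 and Bag3. Over all genes the co-exposed arrays were above the KBrO3 arrays in 28.6% and below them in 23.1%. In Hspa1a and Hsp90aa1 the 3 co-exposed arrays were above the 3 KBrO3 arrays, with 95% intervals of the difference of 0.0061 to 0.19 and 0.017 to 0.30 and adjusted p of 0.0758 and 0.0641. The arrays of Hspa8 after KBrO3 at 24 hr overlapped the controls (adjusted p = 0.790).

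Adding BPA to KBrO3 lowered 2 of the 9 genes at 4 hr, with 10.9% of all genes tested called higher and 9.06% lower. Hspb1 went from 4.67, 4.65 and 4.66 with KBrO3 alone to 4.02, 4.04 and 4.07 with both, a difference of −0.62 ± 0.048 (SE) (adjusted p = 1.16e-06). Bag3 went from 4.81, 4.72 and 4.72 to 4.11, 4.12 and 4.03, a difference of −0.66 ± 0.12 (SE) (adjusted p = 0.000786). The 3 co-exposed arrays were below the 3 KBrO3 arrays in both genes and in Hspb8, as for 40.3% of all genes, and above them in Hspd1, Hsph1 and Hspa1a, as for 37.7% of all genes. The second Bag3 probe gave −0.13 (adjusted p = 0.286), so the call rests on the brighter probe. Under quantile normalization neither gene was called, with Bag3 at −0.56 and Hspb1 at −0.52, and with slide as a random block Hspb1 was at −0.57 and not called. The groups share no slide, and an effect of slide cannot be told apart from that of the added BPA.

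The other 7 genes changed by less than 1.5-fold when BPA was added at 4 hr. The log2 difference was −0.41 for Hspb8 with a 95% interval of −0.50 to −0.32, whereas it was 0.42 for Hspd1 (0.33 to 0.50), 0.26 for Hsph1 (0.14 to 0.38) and 0.21 for Hspa1a (0.11 to 0.30). The intervals of Hspa8, Dnajb1 and Hsp90aa1 included 0. For Hspd1 the second probe gave 0.088 (adjusted p = 0.0745), and for Hspa1a the 4 probes ran from −0.15 to 0.35.

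At 24 hr, limma called 0 of the 9 genes different between co-exposure and KBrO3 alone, where 6.5% of all genes were called higher and 7.65% lower, and 5 of the 9 had an unadjusted p under 0.05, beside 56.1% of all genes. The largest log2 differences were −0.50 for Hspb1 (95% interval −0.61 to −0.39), whose 3 co-exposed arrays were below the 3 KBrO3 arrays, and 0.40 for Hsph1 (0.29 to 0.52). Within the slide that holds both groups these were −0.51 and 0.41. The interval of Bag3 was −0.14 to 0.41.

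**Figure D4:**
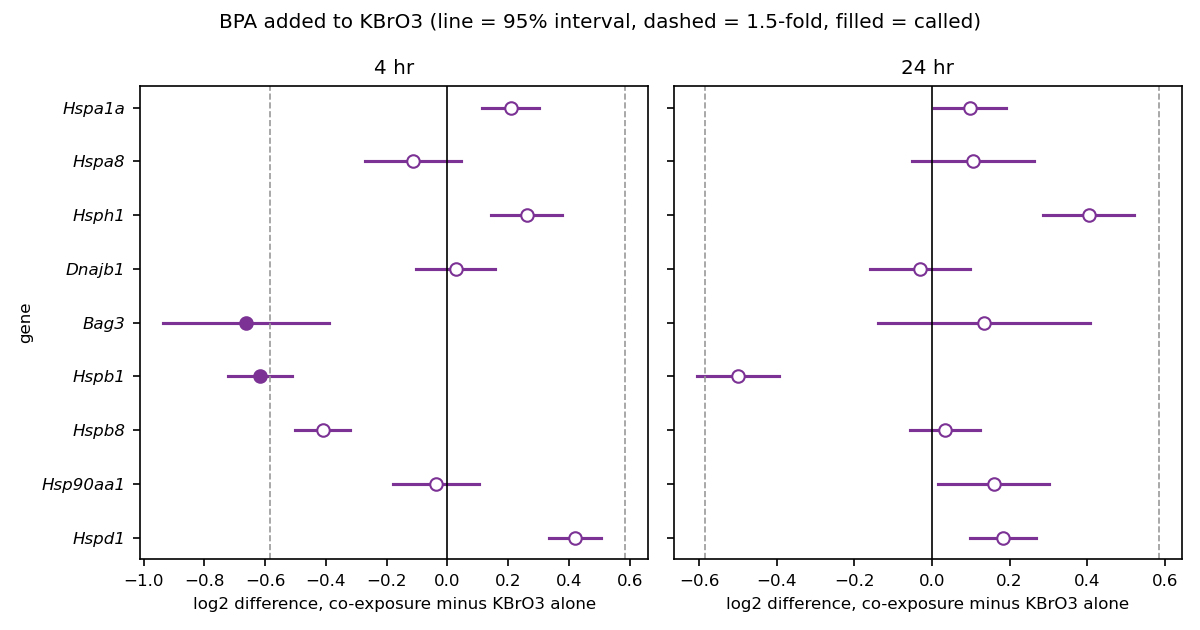
Log2 difference of co-exposure minus KBrO3 alone (x axis) at 4 hr (left) and 24 hr (right) for the 9 genes (rows), with 95% intervals as lines and dashed lines at a 1.5-fold change. Bag3 and Hspb1 are the only filled points, at −0.66 and −0.62 at 4 hr, and no point at 24 hr lies beyond 1.5-fold.

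The effect of added BPA changed between the times in 1 of the 9 genes, Bag3, by 0.80 ± 0.18 (SE) on the log2 scale (adjusted p = 0.00262). Over all genes tested, 13.1% had such a change called upward and 13.8% downward. The second Bag3 probe gave −0.0083. With normexp background correction the brighter probe gave 0.75 (adjusted p = 0.103) and was not called. At a Bonferroni p under 0.01 it was not called either. In Hspb8 the change was 0.44 (adjusted p = 7.93e-05) and in Hspd1 −0.24 (adjusted p = 0.00339), both within 1.5-fold, and the second Hspd1 probe gave 0.15. With arrays scaled to their medians Hspb8 was at 0.76 (adjusted p = 0.000136) and was called. That scaling moved the median of all probes here from −0.059 to 0.25.

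BPA alone was measured in the second set, where the control value of Dnajb1, on array 3, was set aside as an outlier spot and that gene has 2 control arrays. At 4 hr, limma called 0 of the 9 genes, where 3.06% of all genes were called higher and 1.64% lower, and 1 of the 9, Hsph1, had an unadjusted p under 0.05, beside 20.2% of all genes. Hsph1 stood at 3.63, 3.82 and 3.89 in the controls and at 4.36, 4.40 and 4.59 after BPA. The difference was 0.67 with a 95% interval of 0.21 to 1.14 (adjusted p = 0.113) and was not called.

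At 24 hr of BPA alone, 1 of the 9 genes was called higher, Hsph1, with 1.81% of all genes called higher and 2.51% lower. Its levels were 4.89, 5.36 and 4.79, a 2.35-fold rise (adjusted p = 0.0151). The within-slide differences from 1 control array each were 1.07 and 1.47, and with slide as a fixed block the value was 1.27 with an adjusted p of 0.102. Without control array 1 the adjusted p was 0.0597.

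Hspd1 stood at 5.84, 5.47 and 5.03 at 24 hr of BPA and at 4.65, 4.50 and 4.56 in the controls, a difference of 0.88 (adjusted p = 0.0686). Without BPA array 3 it was 1.08 with an adjusted p of 0.0329. For Hspa1a, which had the largest rise after KBrO3, the controls were at 2.34, 2.38 and 2.08 and the BPA arrays at 2.41, 2.38 and 2.32, and the 95% interval of the difference was −0.28 to 0.49. The interval for Bag3 was −0.45 to 0.32, and for Hspb1, whose controls ranged from 0.98 to 2.17, it was −1.01 to 0.56. For Hsp90aa1 the difference was 0.52 (95% interval 0.056 to 0.98, adjusted p = 0.223). At 24 hr of BPA 3 of the 9 genes had an unadjusted p under 0.05, beside 20.9% of all genes. Between 4 and 24 hr of BPA, 0 of the 9 genes were called, where 1.21% of all genes rose and 3.13% fell, and 1 had an unadjusted p under 0.05, beside 21.6% of all genes. The gene with that p was Hsph1, with a difference of 0.56 (95% interval 0.095 to 1.02, adjusted p = 0.173).

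Beyond the 9 genes, 60 other chaperone and co-chaperone genes in 8 lists were read, of which 58 were tested in the first set. After KBrO3 at 4 hr, 29 of the 58 were called higher and 2 lower, where 20.9% and 23.1% of all genes were. After co-exposure at 4 hr 33 were higher and 5 lower, where 28.2% and 26.6% of all genes were. At 24 hr after KBrO3 alone 19 were higher and 3 lower, against 12.7% and 21% of all genes, and after co-exposure 25 and 7, against 15.7% and 24%. Their median log2 difference was 0.62, 0.83, 0.44 and 0.46 in the same order of comparisons.

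All 9 genes of the CCT chaperonin, the ring complex that folds actin and tubulin, were called higher after KBrO3 at 4 hr, with a median log2 difference of 1.08, and 7 of 9 were at 24 hr, with a median of 0.90. Between the times 0 of the 9 CCT genes were called after KBrO3 alone and 2 were lower after co-exposure, where 28.5% and 34.3% of all genes fell. Of the 11 genes of HSP90 and its co-chaperones, 7 were higher at 4 hr and 4 at 24 hr, and of 8 J-domain proteins 5 were higher at 4 hr and 1 at 24 hr, beside the 20.9% and 12.7% of all genes. The heat shock factors Hsf1, Hsf2 and Hsf4 and the binding protein Hsbp1 had no call in either direction after KBrO3 at 4 or 24 hr. After co-exposure at 4 hr Hsf1 was called higher, at 0.65, and Hsbp1 lower, at −1.01.

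The largest rises in the lists after KBrO3 at 4 hr were those of Hspa4, an HSP110 relative of Hsph1, with a log2 difference of 2.08, of the J-domain protein Dnajb4, with 1.95, and of Dnaja4, with 1.68. The largest falls were those of Hspa12b, a distant HSP70 relative, with −2.37 and of the small heat shock protein Hspb2 with −0.82. Dnajb4 then fell by 1.94 on the log2 scale from 4 to 24 hr after KBrO3 alone. Hspa4l was not called at 4 hr and was 1.20 above control at 24 hr.

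Of the 7 mitochondrial chaperones and proteases, to which Hspd1 belongs by location, 4 were higher at 4 hr after KBrO3 alone (Hspe1, Hspa9, Grpel1 and Lonp1) and 4 at 24 hr (Hspa9, Grpel1, Trap1 and Dnaja3), beside 20.9% and 12.7% of all genes. After co-exposure 5 were higher at 4 hr and 7 at 24 hr, beside 28.2% and 15.7%. Adding BPA at 24 hr raised 3 of them, beside 6.5% of all genes: Hspa9, the mitochondrial HSP70, by 0.68, the protease Lonp1 by 0.67 and the protease subunit Clpp by 0.64. After BPA alone at 24 hr 3 of the 7 were called higher, beside 1.81% of all genes, among them Hspa9 by 1.13 and Lonp1 by 0.92 on the log2 scale. After BPA alone Hspb2 fell by 1.26 on the log2 scale at 4 hr and by 1.99 at 24 hr, and Cryab, another small heat shock protein, fell by 1.44 at 24 hr.

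**Figure D5:**
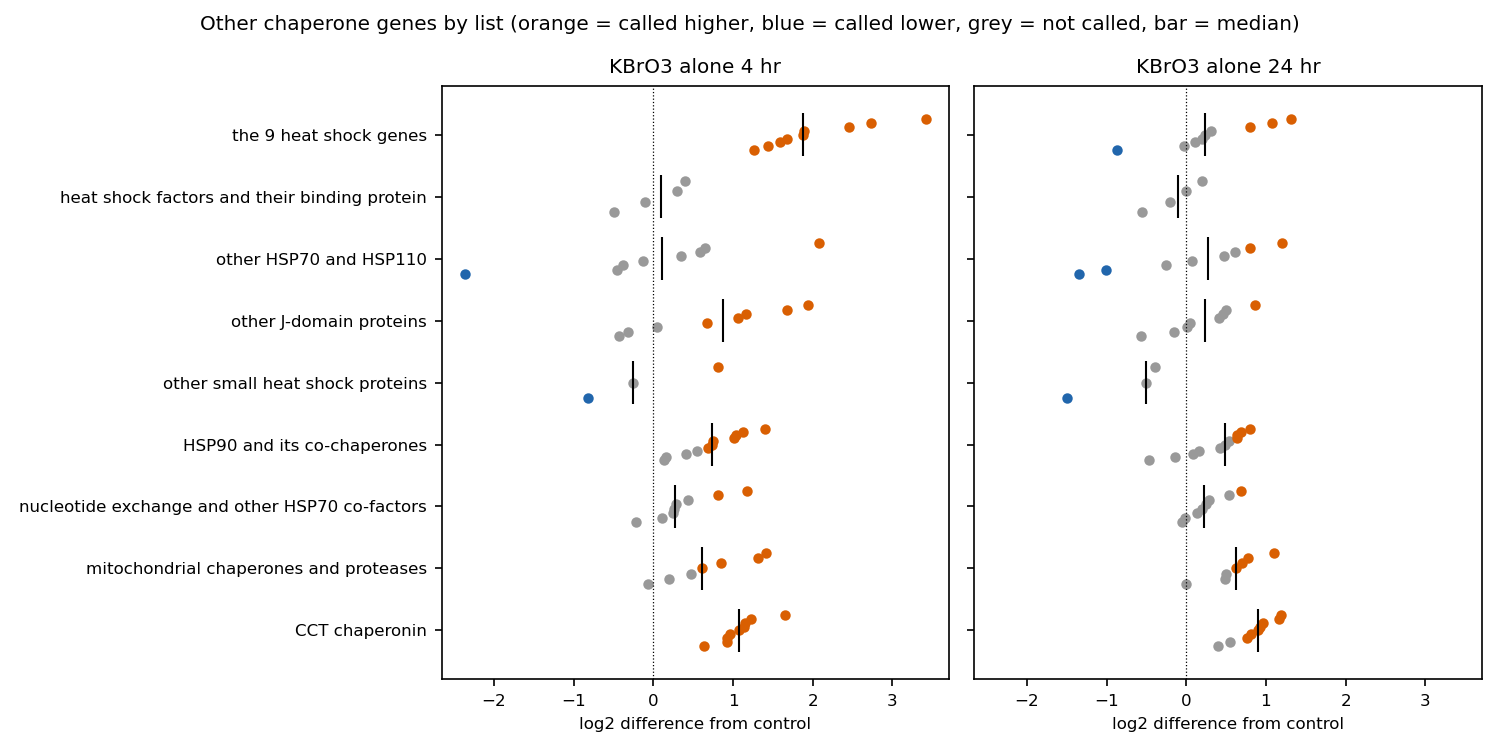
Log2 difference from control (x axis) of each gene of the 9 heat shock genes and of 8 lists of other chaperone genes (rows) after KBrO3 alone at 4 hr (left) and 24 hr (right), with bars at medians. The median of the 9 genes goes from 1.88 to 0.24, whereas that of the CCT chaperonin goes from 1.08 to 0.90.

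Over the 15 arrays of the first set, the 5 genes most like Hspa1a among 12035 compared were Riox1, Orc1, Ier2, Klf4 and Inhba, with Pearson r from 0.997 to 0.999. Those most like Bag3 were Tra2a, Hectd2, Smad4, Zmym1 and Cachd1, with r from 0.994 to 0.998. These values are descriptions, since the arrays share groups and slides.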

How the data were processed

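RNA of 24 samples was hybridized to 1-color Agilent mouse oligonucleotide arrays, 1 sample per array. The authors deposited fluorescence intensity values per spot as given by Agilent's Feature Extraction software, version 9.5.3.1 in the first set and 12.0.0.7 in the second, corrected for background within each array but not normalized between arrays. All 1080432 values deposited for the series as a whole equal the scanner output within a relative tolerance of 1e-06.

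Here, processed signals were converted to log2, each array's 75th percentile over noncontrol spots was subtracted, outlier spots were set aside and replicate spots averaged. A probe entered the test when all 3 arrays of some group read it well above background, which left 27310 probes of set 1 and 31806 of set 2. Each set was fitted on its own with lmFit and eBayes of limma 3.58.1 in R 4.3.3, two-sided. With 3 arrays per group, precision is limited by their number. Python 3.11.15 and pandas 2.3.3 read the files.

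The probe of a gene that was brightest on average over the 24 arrays stood for it, and of the chaperone lists the 3 called genes with the largest rise and fall per comparison were candidates to be named. The genes and lists were chosen with earlier results of these data known. The main fit was tested on simulated arrays with independent noise and no slide effect, so that test does not cover the slides of the real arrays. Probe positions are those of the array design (mm7 in the first set), and promoters are from RefSeq. The Methods' threshold, a Bonferroni p under 0.01, was an alternative, as were other scalings, filters, blocks and left-out arrays.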

Additional observations from a re-analysis of the deposited data

Results flagged for a closer look

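In all 9 measured genes the level under treatment differed between 4 and 24 hr, tested in limma as 24 hr minus 4 hr. Over all genes, 28.5% fell after KBrO3 alone and 34.3% after co-exposure. The same controls serve both times and cancel out of this contrast. The log2 differences between the times after KBrO3 alone were −2.76 for Bag3, −2.25 for Hsph1, −2.11 for Hspa1a, −1.93 for Hspb1, −1.78 for Dnajb1, −1.47 for Hspa8, −1.28 for Hspb8, −1.02 for Hsp90aa1 and −0.59 for Hspd1. After co-exposure they were −2.22 for Hspa1a, −2.11 for Hsph1, −1.96 for Bag3, −1.83 for Dnajb1, −1.82 for Hspb1, −1.25 for Hspa8, −0.84 for Hspb8, −0.83 for Hspd1 and −0.82 for Hsp90aa1. Under quantile normalization 7 of the 9 genes were called after KBrO3 alone and 8 after co-exposure, beside 23% and 27.4% of all genes called lower, and with arrays scaled to their medians 8 and 6, beside 23.8% and 22%. No untreated cells labeled 24 hr are in the first set, so that time in culture and treatment cannot be told apart in these values. No slide held both times of a treatment, and after KBrO3 alone an effect of slide cannot be told apart either.

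The effect of BPA added to KBrO3 differed between the times in Bag3, by 0.80 on the log2 scale, on its brighter probe only. This was 1 of the 9 genes, beside 13.1% of all genes called upward and 13.8% downward. The call was lost under normexp, at 0.75 (adjusted p = 0.103), and at a Bonferroni p under 0.01. The cause was not tested.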

How the results depend on the processing

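Of 537 values of called genes that an alternative moved, 536 kept their sign, and the remaining values did not move. Of 839 values, without the series-wide table, which equals the scanner output, 805 kept their call. The exception in sign was Hspd1 between 4 and 24 hr after KBrO3 alone, at 0.028 under quantile normalization. At 4 hr, all 9 genes were called against control for both KBrO3 treatments under each alternative that gave values, except that the Bonferroni threshold called 8 for co-exposure. Between the times the count of 9 went to 7 after KBrO3 alone and 8 after co-exposure under quantile normalization, to 8 and 6 under median scaling, and to 8 after KBrO3 alone under normexp and with slide as a random block. The count for BPA added at 4 hr went from 2 to 0 under quantile normalization and to 1 under the Bonferroni threshold, with slide as a random block and with the median over a gene's probes. The count for BPA alone at 24 hr went from 1 to 0 under normexp, with only the 6 arrays of the comparison, under the Bonferroni threshold and with slide as a fixed block. The count for the change in the effect of added BPA went from 1 to 2 under median scaling and to 0 under normexp and the Bonferroni threshold. Leaving out 1 array gave 3 to 4 genes for co-exposure at 24 hr, 8 to 9 for KBrO3 alone between the times, 0 to 2 for BPA alone at 24 hr and the full count in the other comparisons. The consensus correlation within slides was 0.634 in set 1 and 0.115 in set 2. Median scaling moved the median of all probes from −0.22 to 0.24 for co-exposure between the times, and normexp moved it from 0.082 to −0.44 for co-exposure at 4 hr. The raw signal for normexp was a mean per spot in the first set and a median in the second. Replicate numbers did not pair arrays, with residual correlations from −0.21 to 0.11 over 30 pairs of set 1, of which 1 was over 0.1, and from −0.38 to 0.65 over 9 pairs of set 2, of which 3 were, and with the replicate number as a block all 48 calls were kept, 9 after KBrO3 at 4 hr and 1 after BPA alone at 24 hr among them. Slide as a fixed block could not be fitted for most comparisons with control in the first set, and slide as a random block was fitted for all of them. The cause of these shifts was not tested.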
